A study of Rattus norvegicus with 24 samples.

Results

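The experiment described here is a single high oral dose of dibutyl phthalate (DBP) given around puberty to male rats with no earlier DBP exposure. The rats were Fisher 344, and all 8 were born to dams gavaged with corn oil every day from gestational day 12 to 20. At postnatal day 35 (PND35) 4 pups received 500 mg/kg DBP in corn oil by 1 gavage (Oil-DBP, pups 105, 111, 115 and 121). The other 4 received corn oil alone (Oil-Oil, pups 104, 110, 114 and 120). The testes were taken 6 hours later, freed of the tunica and frozen, and the RNA of each pup was hybridised to 1 Rat230_2 array. The 8 arrays were picked by the 2 exposures in their titles, out of 24 in the series. The other PND35 groups, DBP-DBP and DBP-Oil, had the same gavages but came from dams given 50 mg/kg DBP. The labels name no gene modification and do not say which pups were littermates. The p-values thus measure the spread between pups within groups, with litters unknown. That spread was estimated over all 16 PND35 arrays in 4 groups, not over these 8 pups alone.

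DBP is a plasticizer whose monoester metabolite acts on the somatic cells of the testis. In the pubertal rat the Sertoli cell, which holds and nourishes the germ cells, is the best known target: its cytoskeleton and its junctions are disturbed within hours, and germ cells then detach and die. In the fetal testis the known target is the Leydig cell, which makes testosterone from cholesterol and the hormone insulin-like 3. An early transcriptional response of stressed tissue runs from immediate early transcription factors to NF-kB targets such as chemokines and interleukins, and then to genes that end the signal.

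The probe sets of the testis cell types were bright in all 8 pups. Prm1, the spermatid protamine, lay at 24720.5 to 33819 in Oil-DBP testes and 30081 to 38155 in Oil-Oil testes. Sycp3, a protein of the meiotic synaptonemal complex, lay at 12302 to 14648 in Oil-DBP and 12885 to 14994 in Oil-Oil, and Clu, an abundant product of Sertoli cells, at 20443 to 28668 in Oil-DBP and 21517 to 26382 in Oil-Oil. The Leydig cell enzyme Cyp17a1 lay at 1795 to 4745 in Oil-DBP and 7082 to 9994 in Oil-Oil. The markers of epididymis, blood and fat summed to 13805 to 17522 in Oil-DBP and 14752 to 15561 in Oil-Oil, most of it from the haemoglobin gene Hbb, and 8 of the 16 had means under 50 in both groups. Values are probe-set intensity, and an array's median intensity lay between 100.8 and 114.1. RNA integrity numbers averaged 8.6 in Oil-DBP and 8.43 in Oil-Oil (difference 0.175, exact permutation test, two-sided, p = 0.2, where 0.0286 is the smallest p that 4 against 4 allow). Per the labels, 2 arrays had Trizol-extracted RNA, pup 115 of Oil-DBP and pup 104 of Oil-Oil, and the other 6 a column kit.

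Within 6 hours DBP changed many transcripts, and the rises were larger than the falls. A call means an adjusted p under 0.05 in limma over all 31042 probe sets, and a gene is represented by its brightest probe set. Of 31042 probe sets 2770 were called (8.92%), 1481 of them higher (4.77%) and 1289 lower (4.15%). Of 14217 genes, 1721 were called (12.1%): 871 were higher in Oil-DBP than in Oil-Oil (6.13%) and 850 lower (5.98%). Among the called, 397 genes were higher by at least 1 on the log2(intensity + 16) scale, and 74 were lower by that much. A step of 1 is a doubling of intensity + 16, which in dim genes is a larger change of the intensity itself. At 2 or more the counts were 111 and 3, and at 3 or more 40 and 0. The median log2 change was 0.91 over the genes called higher, -0.45 over those called lower and -0.11 over all genes. The genes that fell started from a higher level: their median intensity in Oil-Oil was 1056.5, against 327.6 for the genes that rose and 326.7 for all genes. In whole testis, fewer cells of a type and less RNA per cell cannot be told apart.

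**Figure D1:**
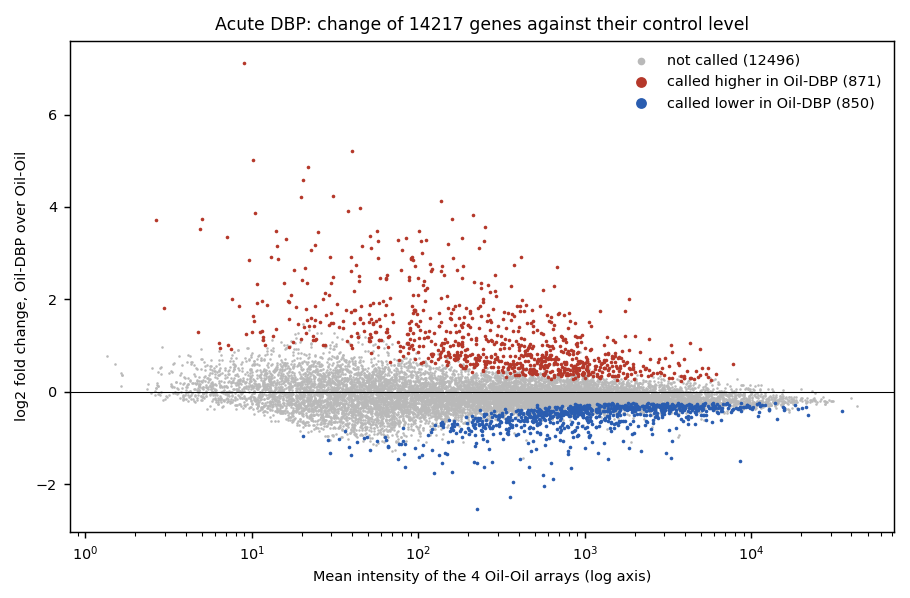
Each point is 1 of 14217 genes, with its mean intensity in the 4 Oil-Oil arrays on a log x axis and its log2 fold change (Oil-DBP over Oil-Oil) on the y axis. The 871 genes called higher reach 7.12, at low and high levels alike, while the 850 called lower form a thin band that is mostly above an intensity of 100 and ends at -2.54.

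For 949 genes all 4 Oil-DBP arrays lay above all 4 Oil-Oil arrays (6.68% of genes) and for 1202 genes below (8.45%). Of the called genes, 754 of the 871 rises and 578 of the 850 falls had groups that did not overlap. In 6 genes every Oil-Oil array was under 50 and every Oil-DBP array over 200: Cxcl1, Calcb, Ccl7, Fos, Egr2 and Arid5a, the last of which was chosen after its values were seen (mean 442.1 in Oil-DBP and 25.1 in Oil-Oil). The opposite pattern was found in 0 genes. The 2 limits of 50 and 200 were set after the data were seen.

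The largest rise was that of Cxcl1, a chemokine that draws neutrophils. Its intensity was 3242, 4179, 2763 and 3988 in Oil-DBP pups, against 3.64, 4.07, 19.9 and 8.35 in Oil-Oil pups (log2 fold change 7.12 ± 0.29, SE, adjusted p = 4.94e-12). Values are given in the order of the pups above, and a signed value after a gene is its log2 fold change, Oil-DBP over Oil-Oil, with its standard error where one is given. Every DBP array was more than 100 times as bright as every oil array. Ccl2, the main attractant of monocytes, was at 1700.5, 2096, 1284 and 2730.1 in Oil-DBP and 24.1, 6.26, 72.2 and 58.0 in Oil-Oil (5.21 ± 0.32, adjusted p = 6.73e-10). Calcb, which encodes a calcitonin gene-related peptide, a dilator of blood vessels, was at 647, 1294, 483 and 1131 in Oil-DBP and 2.96, 9.46, 2.84 and 25.6 in Oil-Oil (5.02 ± 0.32, adjusted p = 9.99e-10). In both genes the lowest DBP array, pup 115, was far above the highest oil array. Of 26 chemokine ligands measured, 9 rose and 0 fell (1 lower at an unadjusted p under 0.05 in limma), and the list's median was 0.42, against -0.11 for all genes. Ccl20, an attractant of lymphocytes with the receptor CCR6 (4.23 ± 0.44), and Ccl7, another attractant of monocytes (4.21 ± 0.24), followed Ccl2. Further rises were those of Cxcl10 (3.28), a ligand of the T cell receptor CXCR3, and the membrane-bound Cx3cl1 (3.01). Ccl20 was at 841, 785, 359 and 1289 in Oil-DBP and 64.3, 47.1, 8.96 and 1.98 in Oil-Oil, with no overlap.

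Immediate early transcription factors had the highest share of called genes of the 48 lists: 21 of 28 rose and 0 fell, with a median of 1.60. At an unadjusted p under 0.05 limma also had 0 lower. Fos, a partner of Jun in the AP-1 factor, was at 1159, 1128, 1107 and 911 in Oil-DBP and 19.3, 43.1, 6.86 and 17.9 in Oil-Oil (4.87 ± 0.27, adjusted p = 1.4e-10). Egr1, a zinc finger factor induced by growth signals, was at 3281, 3519, 3585 and 3081 in Oil-DBP and 165, 223, 253 and 209 in Oil-Oil (3.84 ± 0.18). Its relative Egr2 was at 321, 388, 288 and 305 in Oil-DBP and 25.1, 12.3, 13.7 and 4.99 in Oil-Oil (3.48 ± 0.26). The spread among DBP pups was small in these 3 genes, and no DBP array came near an oil array. The genes that damp such signals moved with them: of 31 feedback genes 19 rose and 1 fell, with a median of 0.79. Zfp36, which speeds the decay of cytokine messenger RNA, was at 2552, 2333, 2005 and 2074 in Oil-DBP and 206, 253, 232 and 238 in Oil-Oil (3.12 ± 0.13). Socs3 (2.92 ± 0.27) and Cish (2.42 ± 0.21), inhibitors of cytokine receptor signalling, also rose. The member that fell was Tob1, an antiproliferative protein (-0.30 ± 0.09, adjusted p = 0.0418), a call lost in 12 of 21 alternative settings.

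NF-kB genes rose in 15 of 22 cases and 0 fell, with a median of 1.15; at an unadjusted p under 0.05 1 was lower in limma. Nfkbiz, a nuclear cofactor of NF-kB needed for late targets such as Il6, was at 491, 1197, 588 and 1003 in Oil-DBP and 7.91, 43.0, 51.4 and 48.0 in Oil-Oil (3.92 ± 0.40). Ripk2, a kinase of NOD receptor signalling (3.32 ± 0.22), and the subunit gene Nfkb2 (3.15 ± 0.35) were also higher on every DBP array. Of 21 genes of the interleukin-1 and interleukin-6 families, 10 rose and 1 fell, with a median of 1.01. Il6 was at 246, 370.2, 183 and 361 in Oil-DBP and 40.4, 18.8, 2.39 and 2.37 in Oil-Oil (3.31 ± 0.36), and its receptor Il6r at 593, 1119.6, 591 and 1118 in Oil-DBP and 90.3, 102, 58.0 and 114 in Oil-Oil (2.92 ± 0.22). In neither gene did the groups overlap. Il1r2, a decoy receptor that takes up interleukin-1 (3.07 ± 0.36), and Il1a, an interleukin that Sertoli cells make constitutively (2.90 ± 0.16), rose with them. Il1rl1, the receptor of interleukin-33, was the member that fell, at 22.3, 8.63, 20.8 and 34.7 in Oil-DBP and 101, 50.8, 77.6 and 35.2 in Oil-Oil (-1.17 ± 0.31, adjusted p = 0.02). It was dim in all pups, and the groups lay within 1 unit of each other at their nearest arrays. The call was lost in 6 of 20 alternatives.

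Promoters, taken as the 250 bases before the start that RefSeq gives (build GRCr8), were read for 6 short motifs in 11700 of the 14217 genes, among them 714 of the genes called higher and 702 of those called lower. The NF-kB motif, GGGA and TTCC with any 2 bases between them, on either strand, stood in 27 windows of genes called higher (3.78%), in 8 of genes called lower (1.14%) and in 148 of all (1.26%). Among the 86 genes with a window that rose by at least 2 on the log2 scale it stood in 8 (9.3%). The AP-1 motif TGANTCA stood in 6.86% of windows of genes called higher, 4.42% of genes called lower and 4.83% of all, and in 16.3% of those of the 86. The serum response motif, the CArG box, stood in 2.38%, 1.85% and 1.24%, and in 4.65% of the 86. For the CRE, TGACGTCA, the shares were 4.06%, 2.99% and 2.64%, and 6.98% of the 86. For the C/EBP motif TTGCNNAA they were 8.68%, 5.41% and 8.17%, and 9.3% of the 86. The motif AAGGTCA, bound by the steroidogenic factor NR5A1, stood in 1.4%, 2.56% and 2.76%, and in 2.33% of the 86. Among the 54 windows of genes that fell by at least 1, NF-kB and CRE motifs each stood in 1.85%. There AP-1 motifs and CArG boxes each stood in 3.7%, C/EBP motifs in 9.26% and NR5A1 motifs in 0%. These shares are descriptions of letters, and a match is not a bound site.

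The 8 windows below belong to 6 genes of the early response and to the 2 largest falls. The 6 do not stand for the rises at large. Each of them holds a motif, while the NF-kB motif stood in only 8 of the 86 windows of the strongest rises (9.3%). Capitals mark motif matches, and positions count back from the start at -1. In Cxcl1 2 matches to the NF-kB motif overlap, at -84 to -75 and at -83 to -74. Ccl7 holds an AP-1 motif at -73 to -67 and an NF-kB motif at -59 to -50, Nfkbiz an NF-kB motif at -13 to -4. Il6 holds a CRE at -162 to -155, a C/EBP motif at -152 to -145 and an NF-kB motif at -68 to -59. Egr2 and Zfp36 each hold a CArG box, at -83 to -74 and at -32 to -23. The windows of Cxcr4 and Tmem229b hold none of the 6.
Cxcl1 (chr14:17479322-17479571, minus strand): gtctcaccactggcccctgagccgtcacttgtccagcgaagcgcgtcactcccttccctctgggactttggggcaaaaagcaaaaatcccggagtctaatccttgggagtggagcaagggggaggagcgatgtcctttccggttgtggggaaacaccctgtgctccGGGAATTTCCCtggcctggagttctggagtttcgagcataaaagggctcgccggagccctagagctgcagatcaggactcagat
Ccl7 (chr10:67513845-67514094, plus strand): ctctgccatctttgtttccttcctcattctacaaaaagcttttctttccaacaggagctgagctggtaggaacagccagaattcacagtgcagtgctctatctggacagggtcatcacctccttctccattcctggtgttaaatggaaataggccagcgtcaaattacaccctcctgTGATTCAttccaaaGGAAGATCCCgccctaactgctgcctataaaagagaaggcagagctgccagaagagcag
Nfkbiz (chr11:58251471-58251720, plus strand): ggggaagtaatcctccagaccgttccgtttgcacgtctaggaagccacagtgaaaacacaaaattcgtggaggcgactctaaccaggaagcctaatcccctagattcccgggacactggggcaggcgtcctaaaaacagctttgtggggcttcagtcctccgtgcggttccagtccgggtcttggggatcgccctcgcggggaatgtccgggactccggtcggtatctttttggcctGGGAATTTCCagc
Il6 (chr4:5894576-5894825, minus strand): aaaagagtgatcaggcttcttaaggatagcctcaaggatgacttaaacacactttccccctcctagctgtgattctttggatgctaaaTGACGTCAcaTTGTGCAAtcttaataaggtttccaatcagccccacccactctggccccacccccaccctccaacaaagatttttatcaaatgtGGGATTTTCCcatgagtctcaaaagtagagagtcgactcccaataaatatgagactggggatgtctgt
Egr2 (chr20:21054442-21054691, minus strand): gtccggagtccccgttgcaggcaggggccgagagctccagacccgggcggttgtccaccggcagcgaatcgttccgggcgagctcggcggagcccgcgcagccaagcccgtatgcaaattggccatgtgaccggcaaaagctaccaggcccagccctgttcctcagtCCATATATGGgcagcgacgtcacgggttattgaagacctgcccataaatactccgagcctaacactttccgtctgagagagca
Zfp36 (chr1:92799109-92799358, minus strand): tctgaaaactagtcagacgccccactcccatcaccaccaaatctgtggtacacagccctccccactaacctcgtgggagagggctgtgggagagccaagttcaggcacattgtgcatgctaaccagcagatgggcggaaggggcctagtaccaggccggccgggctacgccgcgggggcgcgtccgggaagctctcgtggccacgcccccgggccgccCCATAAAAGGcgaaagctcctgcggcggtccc
Cxcr4 (chr13:42634289-42634538, minus strand): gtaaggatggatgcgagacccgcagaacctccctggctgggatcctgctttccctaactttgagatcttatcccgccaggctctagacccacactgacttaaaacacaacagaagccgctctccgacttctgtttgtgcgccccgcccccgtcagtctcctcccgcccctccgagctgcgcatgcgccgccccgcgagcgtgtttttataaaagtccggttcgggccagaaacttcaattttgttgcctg
Tmem229b (chr6:103552209-103552458, minus strand): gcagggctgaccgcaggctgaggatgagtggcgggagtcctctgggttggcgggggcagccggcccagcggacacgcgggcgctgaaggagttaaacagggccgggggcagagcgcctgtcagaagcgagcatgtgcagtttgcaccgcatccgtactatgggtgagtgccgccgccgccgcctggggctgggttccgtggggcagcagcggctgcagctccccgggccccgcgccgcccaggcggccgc

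**Figure D2:**
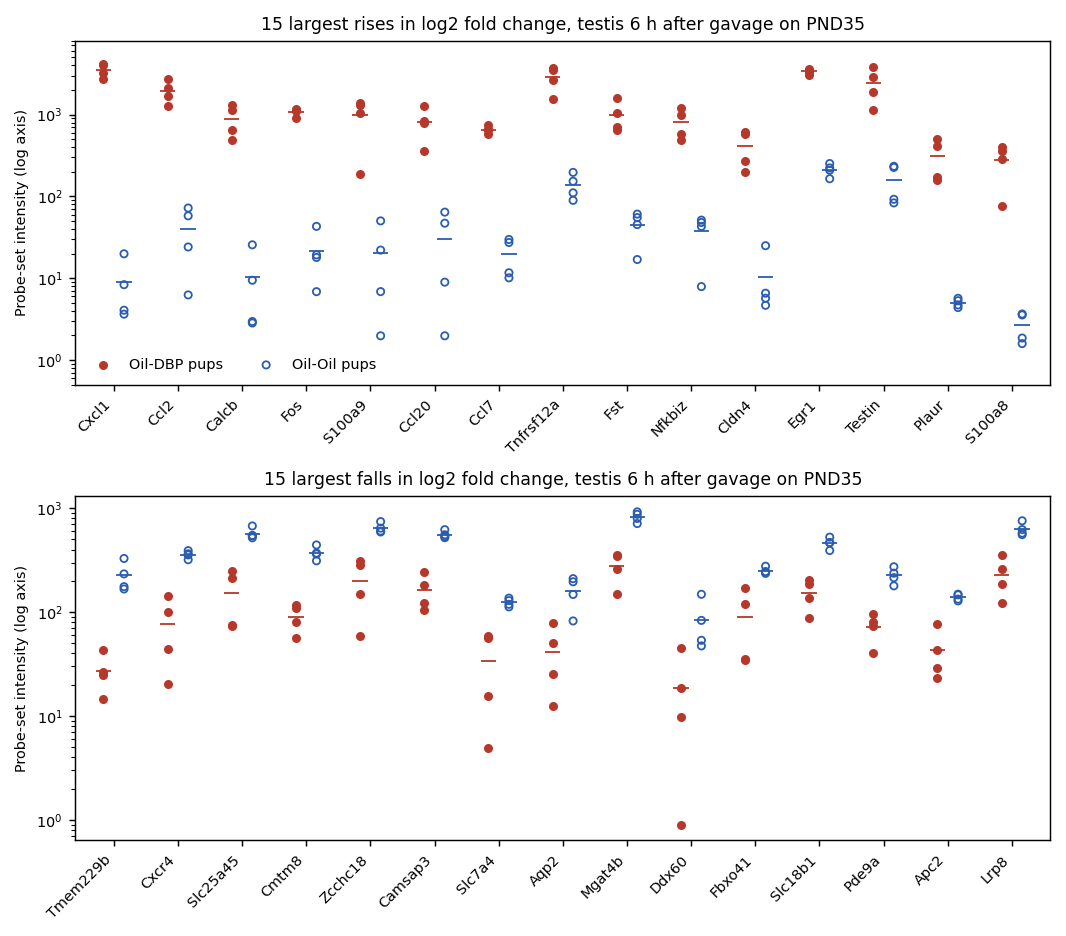
Probe-set intensity (log y axis) of the 15 genes with the largest rises and the 15 with the largest falls among genes called with groups that do not overlap. Filled red points are the 4 Oil-DBP pups, open blue points the 4 Oil-Oil pups and short lines the group means. No red point of the 30 genes reaches into the blue points of the same gene, since the genes were chosen for that. The gap is widest for Cxcl1.

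A few death receptors and survival genes rose. Of 22 genes of the TNF family 6 rose and 0 fell (median 0.27; 0 lower at an unadjusted p under 0.05 in limma). Tnfrsf12a, the receptor of the cytokine TWEAK, was at 1547, 3677, 2685 and 3519 in Oil-DBP and 111, 89.5, 197 and 153 in Oil-Oil (4.14 ± 0.22, adjusted p = 1.24e-10), and pup 105 had the lowest DBP value. Fas, the death receptor that germ cells carry, was at 165, 258, 76.1 and 253 in Oil-DBP and 33.5, 30.2, 40.9 and 25.2 in Oil-Oil (1.90 ± 0.35, adjusted p = 0.00114), and Tnfrsf1a, the main receptor of TNF, rose by 1.86 ± 0.18. Of 31 apoptosis genes and p53 targets, 9 rose and 2 fell (median 0.29). Bcl2a1, a survival protein of the BCL2 family and an NF-kB target, was at 449.9, 1139, 448 and 995 in Oil-DBP and 51.6, 25.8, 70.7 and 57.3 in Oil-Oil (3.38 ± 0.29). The stress sensors Gadd45b (2.62 ± 0.21) and Gadd45g (1.71 ± 0.16) rose as well. The 2 that fell were Sesn1, a p53 target that restrains mTOR (-0.87 ± 0.15), and the initiator caspase Casp9 (-0.39 ± 0.10, lost in 7 of 21 alternatives). Of 26 interferon-linked genes 5 rose and 0 fell (1 lower at an unadjusted p under 0.05 in limma), with a median of 0.14, led by the GTPase Gbp2 (2.52 ± 0.17), the factor Irf1 (2.32 ± 0.18) and Ifit3 (1.85 ± 0.37).

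Among genes of leukocytes, the largest rises were those of S100a9 and S100a8. S100a9, which with S100a8 forms the main cytosolic protein of neutrophils, was at 1327, 1041, 188 and 1379 in Oil-DBP and 22.1, 6.87, 1.98 and 50.3 in Oil-Oil (4.58 ± 0.61, adjusted p = 2.8e-05). S100a8 was at 357, 284, 77.4 and 398 in Oil-DBP and 3.56, 3.66, 1.86 and 1.59 in Oil-Oil (3.72 ± 0.48). Pup 115 had the least of both among the DBP pups and was still above every oil pup. These were the only 2 of 27 neutrophil, mast cell and lymphocyte markers called, with 0 called lower and 0 lower at an unadjusted p under 0.05 in limma. Csf3r, the receptor that drives neutrophil formation, averaged 65.3 in Oil-DBP and 18.2 in Oil-Oil, and Fcnb, a lectin of neutrophil granules, 78.6 in Oil-DBP and 22.8 in Oil-Oil. Cxcr2, the receptor of CXCL1 on neutrophils, averaged 14.7 in Oil-DBP and 10.2 in Oil-Oil, and the granule peptide gene Camp 4.90 in Oil-DBP and 11.5 in Oil-Oil. These 4 were dim and uncalled. The list summed to 3295 to 5278 in Oil-DBP and 2985 to 3451 in Oil-Oil, and the part of neutrophils in the rises was not tested.

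Few macrophage markers were called. Of 27, 3 were higher (11.1%, against 6.13% of all genes) and 2 lower (7.41%, against 5.98%), with a median of 0.13. Fcgr2b, the inhibitory receptor of IgG, was at 160.1, 278, 135 and 226 in Oil-DBP and 32.6, 14.1, 22.2 and 3.04 in Oil-Oil (2.63 ± 0.29). Cd14, the coreceptor of endotoxin, rose by 0.92 ± 0.20, and Mrc1, the mannose receptor of resident macrophages, by 0.35 ± 0.10. Aif1, a calcium-binding protein of macrophages that spermatids also make, fell (-0.54 ± 0.14), as did the class II gene RT1-Bb (-0.50 ± 0.13), whose second probe set was higher at 0.96. Of 21 alternatives Mrc1 lost its call in 10, Aif1 in 6 and RT1-Bb in 9. The list's sum lay at 13161 to 15176 in Oil-DBP and 11941 to 14755 in Oil-Oil. Among 21 genes of leukocyte adhesion and vascular activation 6 rose and 0 fell (0 lower at an unadjusted p under 0.05 in limma), with Vcam1, the ligand of leukocyte integrins, at 2345, 3128, 1664 and 4275 in Oil-DBP and 419, 438, 306 and 344 in Oil-Oil (2.73 ± 0.23). Endothelial identity genes were seldom called, and their median was -0.01, against -0.11 for all genes. Of 26 markers 0 were called higher (0%, against 6.13% of all genes), and 2 were higher at an unadjusted p under 0.05 in limma. The calls lower were 2 (7.69%, against 5.98% of all genes). These were Cldn5, the claudin of endothelial tight junctions, at 285, 262, 362 and 229.7 in Oil-DBP and 503, 473, 401 and 491 in Oil-Oil (-0.76 ± 0.16, adjusted p = 0.00444), and Tek, the angiopoietin receptor (-0.82 ± 0.18, adjusted p = 0.00665). The list summed to 3000 to 3461 in Oil-DBP and 3355 to 3514 in Oil-Oil.

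Genes of cell attachment and the surrounding matrix formed the next block of rises. Of 47 genes of Sertoli junctions and cytoskeleton, 14 rose and 2 fell (median 0.18). Itga6, the laminin receptor subunit at the base and the germ cell face of Sertoli cells, was at 1116, 1436, 1514 and 1690.1 in Oil-DBP and 304, 264, 304 and 283 in Oil-Oil (2.18 ± 0.16, adjusted p = 4.86e-09). Cdh2, the cadherin that joins Sertoli and germ cells (1.65 ± 0.16), and the actin crosslinker Actn1 (1.63 ± 0.26) also rose. The 2 junction genes that fell were Cldn5 and Gja1, the main gap junction protein of Sertoli cells, at 3105, 2542, 3122 and 2727 in Oil-DBP and 3963, 3815, 4037 and 4330.4 in Oil-Oil (-0.56 ± 0.11, adjusted p = 0.00218). Of 28 plasminogen and matrix genes 12 rose and 2 fell. Plaur, the urokinase receptor, was at 173, 504, 157 and 408 in Oil-DBP and 5.32, 4.72, 5.69 and 4.38 in Oil-Oil (3.73 ± 0.35), though its second, dimmer probe set was at -0.07. Serpinb2, an inhibitor of urokinase, rose by 3.52 ± 0.44 and the matricellular Ccn1 by 3.26 ± 0.19. Plau, urokinase itself, went the other way, at 264, 155, 292 and 162 in Oil-DBP and 449, 434, 392 and 539.7 in Oil-Oil (-1.11 ± 0.17, adjusted p = 0.000208), and so did Thbs2, an antiangiogenic matrix protein, from a dim level (-0.99 ± 0.31, adjusted p = 0.0488), a call that was lost in 14 of 20 alternative settings. Peritubular myoid and smooth muscle genes rose in 8 of 27 cases by smaller steps, with Myocd, the coactivator of smooth muscle genes, at 1.10 ± 0.23, Tagln at 0.90 ± 0.12 and Cnn1 at 0.85 ± 0.14, while Aoc3, an amine oxidase of smooth muscle, fell (-0.48 ± 0.14, adjusted p = 0.04, lost in 11 of 21).

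In absolute intensity the largest gains were in bright genes of membranes, lysosomes and matrix, beside Cxcl1. Sdc4, a heparan sulfate proteoglycan of focal adhesions, was at 5535, 9958, 7227 and 9224 in Oil-DBP and 1687, 1561, 1882 and 2246 in Oil-Oil (2.02 ± 0.15). Ctsl, the cathepsin that Sertoli cells secrete in a stage-dependent way, was at 4973, 11686, 10302 and 11214 in Oil-DBP and 3632, 3126, 5048 and 5259 in Oil-Oil (1.05 ± 0.21, adjusted p = 0.00243). Pup 105 lay within the oil range, and the other 3 DBP pups lay far above it. The other large gains in intensity were Cd63 (0.93 ± 0.14), a tetraspanin of lysosomes, Mgp (0.61 ± 0.12), an inhibitor of calcification, Timp1 (1.74 ± 0.20), an inhibitor of matrix proteases, S100a10 (2.69 ± 0.19) and its partner Anxa2 (1.00 ± 0.13), the lectin Lgals3 (1.14 ± 0.13) and Fgl2 (1.74 ± 0.19), a fibrinogen-like protein. Each of these 7 was higher on every DBP array than on every oil array.

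Secreted growth regulators changed in a few members. Of 48 genes of the TGF-beta, BMP and activin pathways 7 rose (14.6%, against 6.13% of all genes) and 1 fell (2.08%, against 5.98%), with a median of 0.04. Fst, follistatin, which binds activin, was at 646, 1598, 704 and 1056 in Oil-DBP and 16.9, 60.8, 55.2 and 45.3 in Oil-Oil (3.98 ± 0.29, adjusted p = 8.33e-09). Inhba, the activin A subunit, was at 184, 587, 66.5 and 408 in Oil-DBP and 24.0, 8.61, 46.1 and 44.0 in Oil-Oil (2.48 ± 0.53, adjusted p = 0.00414), with its second probe set at -0.64. Inhbb, the subunit of inhibin B, fell, at 730.5, 692, 1039 and 840 in Oil-DBP and 1322, 1310.2, 1380.1 and 1723 in Oil-Oil (-0.86 ± 0.15, adjusted p = 0.00073). On the probe sets used the 2 beta subunits thus moved in opposite directions, with no overlap of the groups in either. Bmp2 (1.95 ± 0.31), its antagonist Nog (1.32), the receptor Acvr1 (1.14) and the ligand Tgfb3 (0.90) rose. Of 37 Wnt genes 4 rose (10.8%, against 6.13% of all genes) and 2 fell (5.41%, against 5.98%), with a median of -0.16. Wnt4, a ligand of somatic gonadal cells, was at 2329.6, 4742, 3062 and 3787 in Oil-DBP and 407, 355, 380.3 and 508 in Oil-Oil (2.93 ± 0.18), and Wnt11 (1.96 ± 0.38) and Wnt2 (1.09 ± 0.14) rose too. Wnt6 (-0.76 ± 0.13) and the secreted inhibitor Dkk3 (-1.15 ± 0.18) fell, though a second probe set of each was above 0, at 0.04 and 0.20. Of 32 growth factor ligands 5 rose (15.6%, against 6.13% of all genes) and 1 fell (3.12%, against 5.98%). Pdgfa (1.77 ± 0.24), Vegfa (1.33 ± 0.24) and the dim Csf2 (1.92 ± 0.51, adjusted p = 0.0216) rose, and Igf1, which Leydig and peritubular cells make, was at 1837, 596, 1270.1 and 1037 in Oil-DBP and 2273, 2081, 1939 and 1644 in Oil-Oil (-0.90 ± 0.24, adjusted p = 0.0218), with pup 105 inside the oil range. The call on Igf1 was lost in 8 of 21 alternatives and that on Csf2 in 5. Cldn4, an epithelial claudin, was nearly dark in Oil-Oil, at 4.67 to 25.01, and at 197 to 620.2 in Oil-DBP (3.87 ± 0.36).

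Stress programmes other than the NF-kB response were smaller. Of 29 NRF2 and oxidant defence genes 7 rose and 3 fell (median 0.06): Srxn1, which repairs peroxiredoxins (1.50 ± 0.26), Hmox1, haem oxygenase (1.01 ± 0.12), and Sod2 (0.78 ± 0.12) rose, while Osgin1 (-0.67 ± 0.19), the glutathione transferase Gsta1 (-0.37 ± 0.10) and the NRF2 inhibitor Keap1 (-0.33 ± 0.10) fell. Of 21 alternatives Osgin1 lost its call in 8, Gsta1 in 10 and Keap1 in 11, and 5 left no fall in the list. Of 32 heat shock and unfolded protein genes 7 rose and 1 fell (median -0.01), with the small heat shock protein Cryab at 363, 1392, 309.7 and 996 in Oil-DBP and 63.9, 132, 107 and 93.5 in Oil-Oil (2.46 ± 0.43). Ppp1r15a, which restores translation after stress (1.71 ± 0.20), and its regulator Atf4 (0.69 ± 0.10) rose, and the ATF4 target Asns fell (-0.40 ± 0.11, adjusted p = 0.0306), a call lost in 12 of 21 alternatives. Of 19 glucocorticoid-responsive genes 6 rose and 4 fell. Cebpd (3.26 ± 0.19), Nfil3 (2.46 ± 0.23) and Cebpb (1.75 ± 0.25) led the rises, and the mineralocorticoid receptor Nr3c2 (-1.26 ± 0.37), Ddit4, an mTOR inhibitor (-1.06 ± 0.19), and the sulfotransferase Sult1a1 (-0.76 ± 0.18) the falls. Nr3c1, the glucocorticoid receptor, was uncalled (-0.44 ± 0.18, adjusted p = 0.14; second probe set 0.32).

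**Figure D3:**
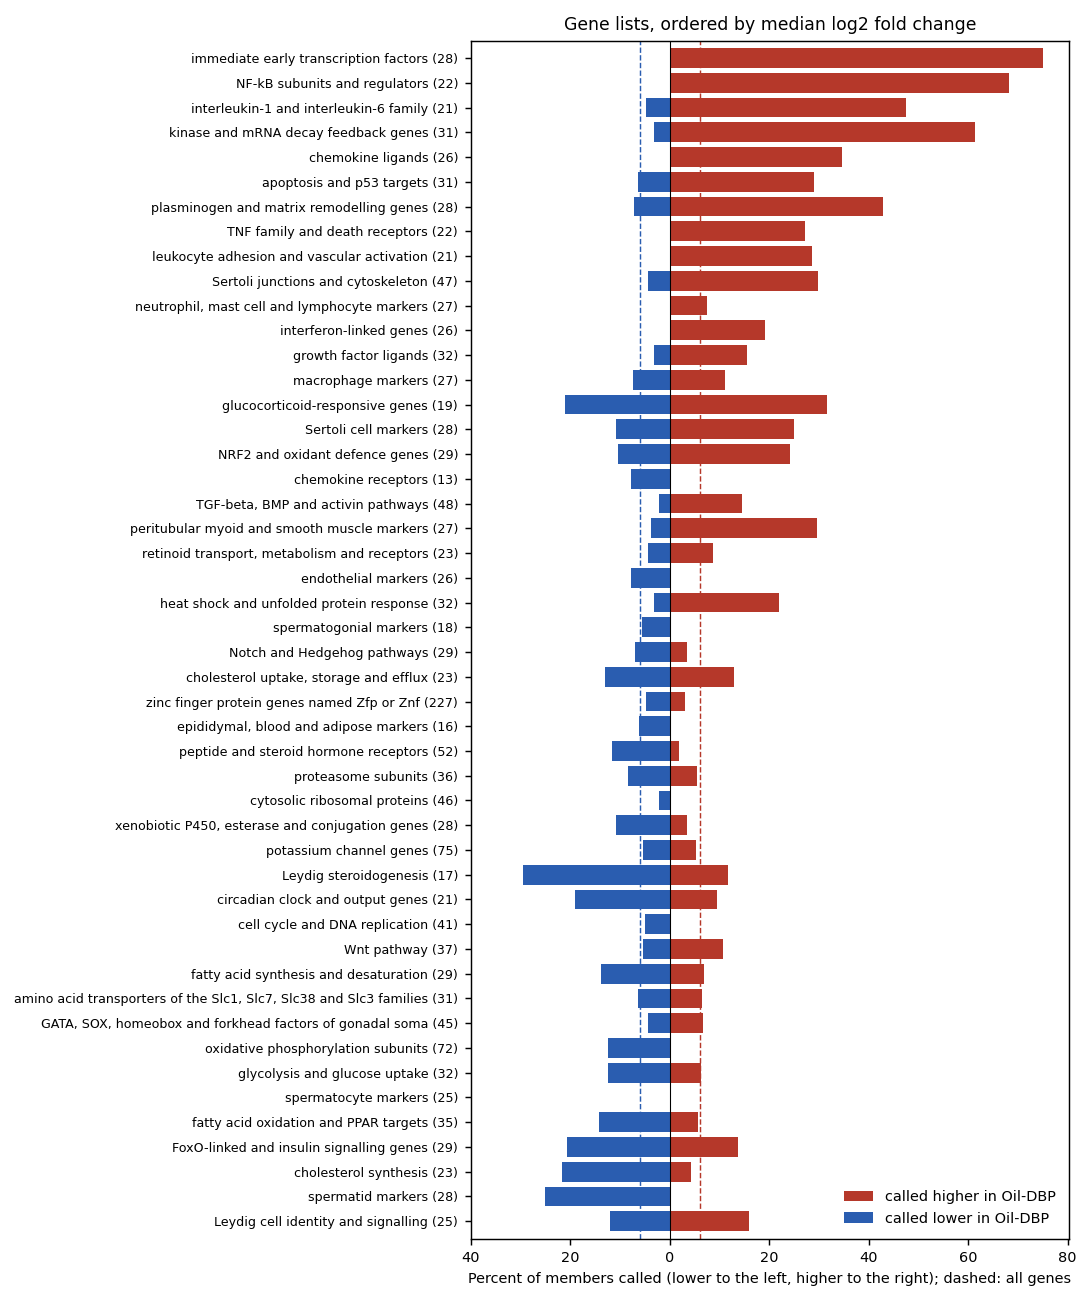
Each row is 1 of the 48 gene lists, with its number of measured genes in parentheses, ordered by the median log2 fold change from highest at the top. Red bars give the percent of members called higher in Oil-DBP, blue bars the percent called lower, and dashed lines the same for all genes (6.13% and 5.98%). Immediate early and NF-kB genes reach 75% and 68.2% higher, while Leydig steroidogenesis, spermatid markers and cholesterol synthesis reach 29.4%, 25% and 21.7% lower.

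The falls outside this early response were led by Tmem229b, a membrane protein of little-known function. It was at 43.2, 24.7, 26.2 and 14.5 in Oil-DBP and 233, 176, 328 and 167 in Oil-Oil (-2.54 ± 0.25, adjusted p = 4.83e-07), with a wide gap between the groups. Cxcr4, the receptor of the chemokine CXCL12, was at 101, 20.1, 144 and 44.5 in Oil-DBP and 390.4, 355, 364 and 319 in Oil-Oil (-2.28 ± 0.32, adjusted p = 5.04e-05). It was the only one of 13 chemokine receptors called, with 1 higher at an unadjusted p under 0.05 in limma, 8 of which averaged under 50 in both groups. Slc25a45, a carrier of the inner mitochondrial membrane, was at 211, 72.9, 249 and 74.6 in Oil-DBP and 674, 519, 547 and 542 in Oil-Oil (-2.04 ± 0.30). In Cxcr4 and Slc25a45 the DBP pups split alike, with pups 111 and 121 lowest, and neither group overlapped the other. Of the 74 genes that fell by at least 1 on the log2 scale, 67 had groups that did not overlap, and 52 belonged to none of the 48 lists. Over all 850 genes called lower these counts were 578 and 741. Of the 871 genes called higher 660 were in no list either. The lists cover a small part of the 14217 genes, so most genes, called or not, lie outside them.

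Some genes of androgen synthesis fell, from cholesterol uptake to CYP17A1, while the mitochondrial cholesterol carrier rose. Of 17 Leydig steroidogenesis genes 2 rose (11.8%, against 6.13% of all genes), 5 fell (29.4%, against 5.98%) and 10 were uncalled. The median was -0.15 against -0.11 for all genes. Cyp17a1, the enzyme that turns progestins into androgens, was at 4237, 1795, 4745 and 2685 in Oil-DBP and 8977, 8373, 9994 and 7082 in Oil-Oil (-1.50 ± 0.24, adjusted p = 0.000207). All DBP pups were below all oil pups, with pups 111 and 121 lowest. Cyp11a1, which cleaves the side chain of cholesterol, was at 500, 187, 671 and 227 in Oil-DBP and 740.1, 606, 865 and 629.9 in Oil-Oil (-1.05 ± 0.32, adjusted p = 0.0418), with pup 115 inside the oil range. Scarb1, the receptor that takes up cholesterol from lipoproteins, was at 706, 396, 844 and 519 in Oil-DBP and 869, 789.8, 1112 and 1085 in Oil-Oil (-0.74 ± 0.19, adjusted p = 0.02), with pup 115 again inside the oil range. Hsd3b1, which turns pregnenolone into progesterone, averaged 2726 ± 552 in Oil-DBP and 4194 ± 666 in Oil-Oil (SD, n = 4 each; -0.69 ± 0.15, adjusted p = 0.00397). The cytochrome b5 gene Cyb5b fell by a smaller step (-0.55). Cyp17a1 kept its call in all 21 alternatives, Scarb1 lost it in 6 and Cyp11a1 in 10, among them leaving out pup 111 or 121.

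Star, the carrier of cholesterol into mitochondria that responds to acute stimulation, moved against these enzymes. It was at 636, 928, 810.3 and 761 in Oil-DBP and 422, 486, 212 and 286 in Oil-Oil (1.11 ± 0.33, adjusted p = 0.0382), all DBP pups above all oil pups. A second probe set of Star was uncalled (0.46, adjusted p = 0.263 in limma). The electron donor Fdx1 also rose (0.36 ± 0.10, adjusted p = 0.0314), with an uncalled second probe set at 0.21. Both calls were fragile: over 21 alternative settings and left-out pups, Star lost its call in 9 and Fdx1 in 8. Hsd17b3, the last step to testosterone, was dim and scattered, at 98.7, 13.8, 26.4 and 24.1 in Oil-DBP and 66.9, 52.8, 3.86 and 49.5 in Oil-Oil, and gave no call (adjusted p = 0.875).

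Leydig cell identity genes also moved both ways. Of 25 measured 4 rose and 3 fell, and the list had the lowest median of all 48, -0.42. Nr5a1, the master transcription factor of steroidogenic cells, was at 443, 240.4, 487 and 287 in Oil-DBP and 669, 539, 679.7 and 772 in Oil-Oil (-0.95 ± 0.21, adjusted p = 0.00597). Nr2f2, a nuclear receptor of Leydig and other interstitial cells, was at 668, 347, 841 and 472 in Oil-DBP and 1046, 1075, 1059 and 1053 in Oil-Oil (-0.98 ± 0.19, adjusted p = 0.00167). Both were lower on every DBP array, again least so in pups 105 and 115, and the third fall was that of Thbs2. Insl3, which Leydig cells secrete and which guides the descent of the testis, was at 5244, 842, 2048 and 1284 in Oil-DBP and 5650.5, 4175, 2489 and 2317 in Oil-Oil, with wide overlap and no call (-0.94 ± 0.40, adjusted p = 0.15). The receptor of luteinizing hormone, Lhcgr, at 473, 433, 432 and 334 in Oil-DBP and 706, 627, 510.4 and 375 in Oil-Oil, was also uncalled (-0.43 ± 0.15, adjusted p = 0.0857; second probe set 0.06). The members that rose were Vcam1, Nr4a1, an orphan nuclear receptor that LH signalling induces (1.59 ± 0.23), Igfbp3, a binding protein of insulin-like growth factors (1.15 ± 0.22), and Gata4 (0.45 ± 0.10).

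Some cholesterol synthesis genes fell beside those of steroid synthesis. Of 23 cholesterol synthesis genes 1 rose and 5 fell, with a median of -0.28, and 19 were below 0. Dhcr7, the last enzyme of the pathway, was at 498, 259, 697 and 408 in Oil-DBP and 915, 896, 1041 and 1156 in Oil-Oil (-1.22 ± 0.19, adjusted p = 0.000206), with no overlap. Mvd (-0.47 ± 0.14) and Acat2 (-0.46 ± 0.12), early steps of the pathway, fell less, as did Fdft1 (-0.35) and Sqle (-0.29), which commit it to sterols. The gene that rose was Scap, the sterol-sensing escort of the transcription factor SREBP (0.72 ± 0.12). Over 21 alternatives the count of falls ran from 1 to 9, with Dhcr7 called in each, while Mvd lost its call in 9 and Acat2 in 5.

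Of 23 genes of cholesterol uptake, storage and efflux 3 rose (13%, against 6.13% of all genes) and 3 fell (13%, against 5.98%). Lrp8, a receptor of the LDL receptor family, was at 351, 123, 260.5 and 186 in Oil-DBP and 756, 557, 622 and 575 in Oil-Oil (-1.53 ± 0.29), and Stard3 (-0.53 ± 0.12) and Osbpl1a (-0.55 ± 0.14), both sterol-binding proteins of endosomes, fell by less. Ch25h, which makes the immune signal 25-hydroxycholesterol, rose (3.35 ± 0.34), with Soat1, which esterifies cholesterol (0.70 ± 0.12), and the efflux pump Abcg1 (0.62 ± 0.12). In fatty acid synthesis 2 rose (6.9%, against 6.13% of all genes) and 4 fell (13.8%, against 5.98%) of 29. The desaturase Fads1 was at 1205, 461, 1034 and 847 in Oil-DBP and 1862, 1852, 1493 and 1589 in Oil-Oil (-1.07 ± 0.21), Fasn fell by a smaller step (-0.43 ± 0.10) and Scd from a dim level (-1.20 ± 0.37, adjusted p = 0.0497, lost in 14 of 20 alternatives), while Elovl5 (0.72 ± 0.11) and Acsl4 (0.44 ± 0.12) rose. Of 21 alternatives Acsl4 lost its call in 8, as did Osbpl1a.

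Of 35 genes of fatty acid oxidation and PPAR targets 2 rose (5.71%, against 6.13% of all genes) and 5 fell (14.3%, against 5.98%). The median was -0.24. Cpt1a, the gate of fatty acids into mitochondria, was at 594, 329, 658 and 445 in Oil-DBP and 803, 855, 981 and 998 in Oil-Oil (-0.93 ± 0.16, adjusted p = 0.000647). Acaa2, the thiolase of beta-oxidation, fell by a smaller step (-0.52 ± 0.09), with Plin3 (-0.42), Decr1 (-0.32) and Fabp3. The 2 PPAR targets that rose were Angptl4, an inhibitor of lipoprotein lipase (1.56 ± 0.18), and Plin2, the coat of lipid droplets (0.84 ± 0.14), whose second probe set was at -0.16. Ppara, the receptor through which phthalates act in liver, had intensities under 10 in all 8 pups (2.97 to 6.06 in Oil-DBP and 3.14 to 8.29 in Oil-Oil).

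Sertoli cell markers moved in both directions. Of 28 measured, 7 rose and 3 fell (median 0.08). Testin, a protein that Sertoli cells release when their junctions to germ cells open, was at 1124, 3823, 1886 and 2919 in Oil-DBP and 83.3, 92.3, 234 and 226 in Oil-Oil (3.73 ± 0.36, adjusted p = 4.38e-07). Cyp26b1, which destroys retinoic acid, was at 1663, 686, 2167 and 1063 in Oil-DBP and 2726, 2712, 3246 and 3680.2 in Oil-Oil (-1.32 ± 0.26, adjusted p = 0.00216). Fabp3, a fatty acid carrier, was at 4519, 3152, 4627 and 3209 in Oil-DBP and 6814, 5704, 5281 and 5458 in Oil-Oil (-0.66 ± 0.13). These 3 genes had no overlap between groups. Kitlg, the Sertoli ligand of spermatogonial KIT, rose (0.60 ± 0.14, adjusted p = 0.00665) and was at 1055, 1676, 1425 and 1605 in Oil-DBP and 808, 775, 947 and 1045 in Oil-Oil, with pup 105 close to the highest oil array. Rhox5, an androgen-induced homeobox gene of Sertoli cells, rose too (1.12). Wt1 (0.21 ± 0.12), Inha (0.25 ± 0.11), Cldn11 (0.13 ± 0.10), Amh (0.04 ± 0.12) and Clu (-0.03 ± 0.09) were not called, with adjusted p between 0.166 and 0.894. The summed intensity of the list was 99120 to 134214 in Oil-DBP and 97067 to 118144 in Oil-Oil.

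**Figure D4:**
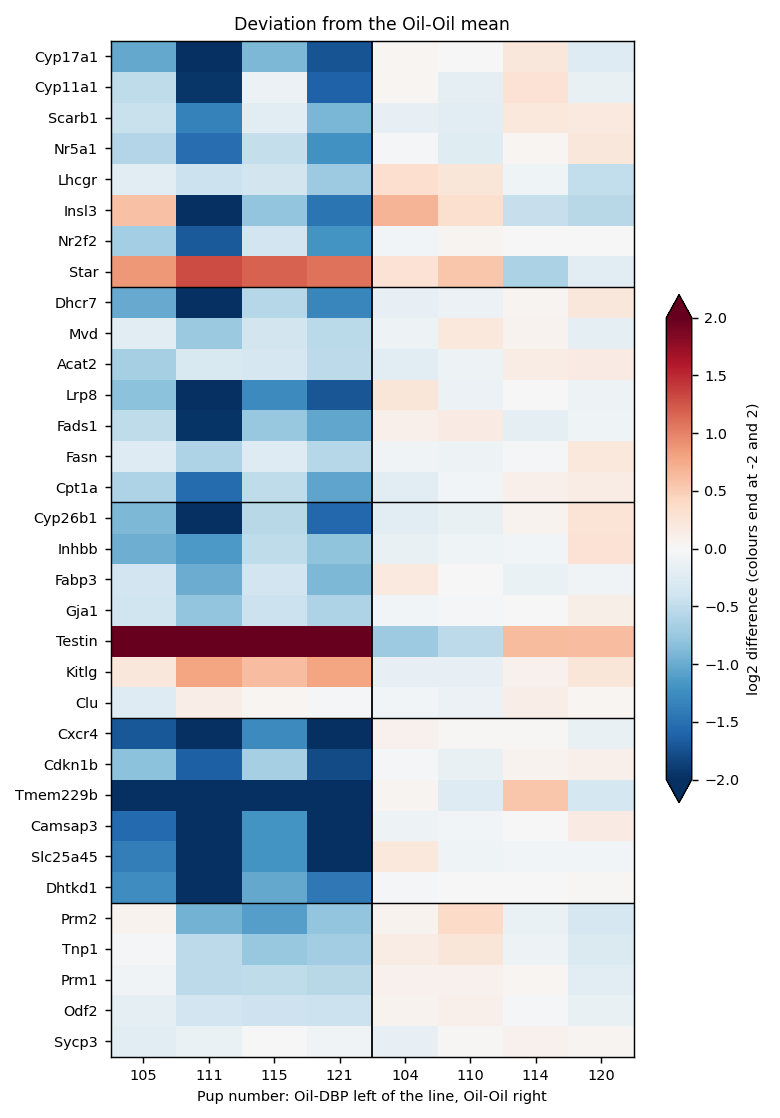
Difference from the Oil-Oil mean on the log2(intensity + 16) scale for 33 genes and 8 pups, with the Oil-DBP pups left of the vertical line. Blue is lower, red higher, and colours end at -2 and 2; horizontal lines part Leydig, lipid, Sertoli, other falling and germ cell genes. Pups 111 and 121 are darkest in most falls of the upper 4 blocks, and Star, Testin and Kitlg go against the genes around them.

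Regulators of growth and of insulin-like growth factors moved both ways. Of 29 FoxO-linked and insulin signalling genes 4 rose (13.8%, against 6.13% of all genes) and 6 fell (20.7%, against 5.98%), with a median of -0.25. Cdkn1b, the cyclin-dependent kinase inhibitor p27, was at 1047, 632, 1208 and 539.5 in Oil-DBP and 1849.6, 1625, 1936 and 1956 in Oil-Oil (-1.23 ± 0.18, adjusted p = 0.000124). Ddit4 was at 238, 306, 515 and 443 in Oil-DBP and 785, 598, 724 and 849.5 in Oil-Oil (-1.06 ± 0.19), and Igfbp5, another binding protein of insulin-like growth factors, was at 447, 90.0, 356 and 200.3 in Oil-DBP and 594, 532, 452 and 384 in Oil-Oil (-1.06 ± 0.31), with pup 105 inside the oil range. Cdkn1b and Ddit4 had no overlap, and the call on Igfbp5 was lost in 9 of 21 alternatives. Igfbp3, the repressor Bcl6 (1.03 ± 0.21) and the kinase Sgk1 (0.67 ± 0.14) rose in the same list. Of 41 cell cycle genes 0 rose (0%, against 6.13% of all genes), with 0 higher at an unadjusted p under 0.05 in limma. Only Cdkn1b and the replication helicase Mcm7 (-0.29 ± 0.07, lost in 5 of 21 alternatives) fell (4.88%, against 5.98%).

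Of 21 clock genes 2 rose (9.52%, against 6.13% of all genes) and 4 fell (19%, against 5.98%), with a median of -0.15. The repressors Bhlhe40 (2.51 ± 0.21) and Nfil3 rose, and the activator Npas2 (-0.70 ± 0.17), Nr1d1 (-0.65 ± 0.20) and the output gene Dbp, a transcription factor unrelated to the phthalate of the same letters, fell, with its relative Tef (-0.50). The call on Nr1d1 was lost in 13 of 21 alternatives and that on Dbp in 3. Dbp was at 212, 95.9, 219.5 and 167 in Oil-DBP and 267, 238, 343 and 398 in Oil-Oil (-0.89 ± 0.22, adjusted p = 0.0133), with no overlap. Of 52 hormone receptor genes 1 rose (1.92%, against 6.13% of all genes) and 6 fell (11.5%, against 5.98%), with a median of -0.12. Agtr2, the type 2 angiotensin receptor, was at 3.49, 8.14, 8.92 and 2.40 in Oil-DBP and 58.6, 35.7, 41.0 and 21.6 in Oil-Oil (-1.38 ± 0.30), with its second probe set at 0.56. Nr3c2 was at 54.0, 9.10, 78.7 and 55.3 in Oil-DBP and 106, 92.3, 127 and 159 in Oil-Oil, with no overlap. Adra2a, an adrenergic receptor (-1.12 ± 0.30), and the thyroid hormone receptor Thra (-0.78) fell too. Of 21 alternatives Nr3c2 lost its call in 10 and Adra2a in 6. Calcrl, a receptor subunit for calcitonin gene-related peptide, chosen after its values were seen, averaged 20.6 ± 8.50 in Oil-DBP and 56.3 ± 5.60 in Oil-Oil (SD, n = 4 each; -1.07 ± 0.25, adjusted p = 0.00821), while the peptide gene Calcb rose. Vipr1, a receptor of vasoactive intestinal peptide, rose from a dim level (1.47 ± 0.34), with its second probe set at -0.75.

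The 25 largest falls outside every list had varied roles, and 24 of them had groups that did not overlap. In membranes and transport they held Cmtm8, which turns over the EGF receptor (-1.96 ± 0.27), Slc18b1, a vesicular polyamine transporter (-1.62 ± 0.21), the water channel Aqp2 (-1.74 ± 0.34), the chloride channel family protein Clic3 (-1.32 ± 0.27), the sodium channel Scn1a (-1.32 ± 0.26) and Kctd12, a subunit of GABA-B receptors (-1.36 ± 0.23). Slc7a4, of the cationic amino acid transporter family, fell as well (-1.75 ± 0.43) but stood in a list. In metabolism they held Dhtkd1, which degrades a product of lysine (-1.46 ± 0.21), the peroxisomal oxidase Hao2 (-1.43 ± 0.30), Pdp2, which activates pyruvate dehydrogenase (-1.38 ± 0.32), the acetyltransferase family gene Nat8f5 (-1.52 ± 0.26) and Mgat4b, which branches N-glycans (-1.65 ± 0.23). In the cytoskeleton and signalling they held Camsap3, which caps microtubule minus ends (-1.80 ± 0.21), Apc2, a relative of the APC tumour suppressor (-1.54 ± 0.26), Pde9a, which breaks down cyclic GMP (-1.54 ± 0.22), the ciliary protein Invs (-1.34 ± 0.30), the ubiquitin ligase subunit Fbxo41 (-1.63 ± 0.39) and Card9, an adaptor of antifungal signalling (-1.45 ± 0.39). Zcchc18 (-1.89 ± 0.39), Ddx60 (-1.63 ± 0.36), Evi2a (-1.52 ± 0.32), Lratd1 (-1.46 ± 0.22), Mrgprf (-1.40 ± 0.30), Hrg (-1.34 ± 0.28), Slc25a45 and Tmem229b complete them. The second probe sets of Cmtm8 (0.42), Pdp2 (0.03) and Invs (0.13) were above 0.

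Several of these were well above background and steady in the oil pups. Camsap3 was at 181, 123, 245 and 104 in Oil-DBP and 534, 520, 554 and 621 in Oil-Oil (adjusted p = 5.2e-06). Mgat4b was at 348, 149, 354 and 259 in Oil-DBP and 922, 711, 796 and 873 in Oil-Oil (adjusted p = 4.15e-05), and Dhtkd1 at 167, 86.5, 201 and 149 in Oil-DBP and 411, 399, 412 and 411 in Oil-Oil (adjusted p = 5.47e-05). In all 3 every DBP pup lay below every oil pup, lowest in pup 111 or 121. Hao2 was the brightest of the 25, at 2471, 513, 1975 and 1023 in Oil-DBP and 3879, 3566, 2835 and 2987 in Oil-Oil (adjusted p = 0.00414). Lratd1 was at 677, 299.9, 821 and 408 in Oil-DBP and 1199, 1335, 1501 and 1466 in Oil-Oil (adjusted p = 0.000155). Others rested on dim probe sets, such as Scn1a, at 6.27, 2.34, 2.71 and 0.86 in Oil-DBP and 29.7, 31.5, 36.6 and 20.5 in Oil-Oil, and Card9, at 33.6, 30.2, 4.86 and 8.19 in Oil-DBP and 134, 70.8, 56.8 and 41.1 in Oil-Oil. Evi2a was the one with overlap, since pup 115, at 237.9, lay within the oil range of 210.2 to 332. Of the 25 calls, 21 held in every alternative in which the probe set was tested, and that on Card9 was lost in 7 of 20.

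Spermatid genes, among the brightest on the arrays, fell by small steps where called. Of 28 spermatid markers 0 rose, 0 were higher at an unadjusted p under 0.05 in limma, 7 fell, and all 28 were below 0, with a median of -0.36 against -0.11 for all genes. Prm1 was at 33819, 26544, 25610 and 24720.5 in Oil-DBP and 38155, 36207, 36277 and 30081 in Oil-Oil (-0.42 ± 0.11, adjusted p = 0.0242). Tnp1, a transition protein that precedes the protamines, was at 21505, 16541, 13419.7 and 13922 in Oil-DBP and 24769, 25071, 20475 and 17775 in Oil-Oil (-0.51 ± 0.15, adjusted p = 0.0344), and Prm2 at 4789, 2534, 2171 and 2706 in Oil-DBP and 4876, 5758, 4142 and 3529.9 in Oil-Oil (-0.69 ± 0.20). Pup 105 lay within the oil range in all 3, so the groups overlapped. Under 8 of 21 alternatives (the processing choices and left-out pups given in the closing section), among them quantile normalization and leaving out pup 104, 110 or 111, 0 spermatid genes were called, and without pup 105 it was 21. Odf2, of the sperm tail (-0.35 ± 0.10), Meig1 (-0.54 ± 0.16), Tnp2 (-0.58 ± 0.18) and Cabs1 (-0.63 ± 0.18) were the other calls. Each of the 7 was lost in 10 to 14 of the 21 alternatives. The list summed to 227127 to 326083 in Oil-DBP and 272961 to 361760 in Oil-Oil.

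Oxidative phosphorylation subunits gave 0 rises and 9 falls among 72 (median -0.20), with 1 higher at an unadjusted p under 0.05 in limma. The largest was that of Atp5me, a subunit of ATP synthase, at 2284, 1784, 1924 and 2170.1 in Oil-DBP and 2667, 3024, 2684 and 2440.4 in Oil-Oil (-0.47 ± 0.11). Ndufv3 (-0.39 ± 0.12) and Ndufa9 (-0.36 ± 0.10) of complex I followed, the second with another probe set at 0.48, and their calls were lost in 12 and 13 of 21 alternatives. The count ran from 0 (without pup 111 among others) to 28 over the alternatives. Of 32 glycolysis genes 2 rose (6.25%, against 6.13% of all genes) and 4 fell (12.5%, against 5.98%). Pfkfb3 (1.03 ± 0.20) and Pgk1 (0.40 ± 0.10) rose, and Aldoc (-0.71 ± 0.17), Slc2a3 (-0.39 ± 0.12) and Gpi (-0.36 ± 0.11) were among those that fell. The count of falls ran from 0 to 12 over the alternatives. Gpi lost its call in 11 of 21 and Slc2a3 in 15. Of 36 proteasome subunits 2 rose (5.56%, against 6.13% of all genes) and 3 fell (8.33%, against 5.98%). Psmd5 (0.40 ± 0.11) and Psmb2 (0.30 ± 0.07) were higher and Psmc5 (-0.31 ± 0.07), Psmc3 (-0.30 ± 0.09) and Psmd7 (-0.28 ± 0.07) lower. Psmd5 was lost in 8 of 21 alternatives and Psmc3 in 13. Of 46 ribosomal protein genes 0 rose, 0 were higher at an unadjusted p under 0.05 in limma, and Rpl24 fell (-0.29 ± 0.08, lost in 8 of 21 alternatives). Eef1g (-0.39 ± 0.08), Elob (-0.34 ± 0.09), Actr10 (-0.38 ± 0.11) and Znhit1 (-0.36 ± 0.10) were the other large losses of intensity, and a second probe set of Eef1g was at 0.14. Of 21 alternatives Elob lost its call in 10, Actr10 in 11 and Znhit1 in 13. With the arrays as deposited, uncentred, the median over all probe sets was -0.02, against -0.08 as used here, and rises made up 69.2% of the called probe sets, against 53.5%.

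Spermatocyte markers gave no call in either direction among 25, with 1 higher and 7 lower at an unadjusted p under 0.05 in limma and a median of -0.22. Sycp3 was at -0.10 ± 0.08 (adjusted p = 0.48). Of 18 spermatogonial markers 0 rose, 1 was higher at an unadjusted p under 0.05 in limma, and Pou3f1, a factor of undifferentiated spermatogonia, fell, at 19.1, 80.7, 44.2 and 47.1 in Oil-DBP and 103, 129, 139.6 and 164 in Oil-Oil (-1.37 ± 0.30, adjusted p = 0.00524). Kit, the receptor of differentiating spermatogonia, was uncalled (-0.09 ± 0.23, adjusted p = 0.872). Among epididymal, blood and fat markers Alas2 fell (-0.36 ± 0.11, lost in 11 of 21 alternatives). In other lists the called share stayed near the background of 6.13% and 5.98%. Of 227 zinc finger genes 7 rose and 11 fell, with Zfp36l2 (1.44 ± 0.14) and Zfp36l1 (1.13 ± 0.10) behind Zfp36 and with Zfp839 (-1.03 ± 0.29), Zfp9 (-0.98 ± 0.30) and Zfp395 (-0.79 ± 0.19) lowest. Zfp9 lost its call in 14 of 20 alternatives and Zfp839 in 9 of 20, and the count of zinc finger falls ran from 1 to 20. Of 75 potassium channel genes 4 rose and 4 fell, among them Kcnk6 (1.70 ± 0.19), Kcne1 (1.68 ± 0.16) and Kcnn4 (1.20 ± 0.27) higher and Kcne4 (-0.88 ± 0.18), Kcnd1 (-0.88 ± 0.24) and Kcnh1 (-0.72 ± 0.21) lower, with Kcnd1 lost in 6 of 21 alternatives and Kcnh1 in 10. Of 31 amino acid transporters 2 rose and 2 fell, Slc1a5 (0.62 ± 0.19) and Slc7a1 (0.59 ± 0.11) higher and Slc7a4 and Slc38a2 (-0.54 ± 0.13) lower, with Slc1a5 lost in 11 of 21.

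Of 45 transcription factors of gonadal soma 3 rose (6.67%, against 6.13% of all genes) and 2 fell (4.44%, against 5.98%). The rises were Zeb2 (1.30 ± 0.21), Zeb1 (0.59 ± 0.14) and Gata4, and the falls Nr2f2 and Nr5a1. Of 23 retinoid genes 2 rose (8.7%) and 1 fell (4.35%). Rai14 (1.60 ± 0.20, with a second probe set at -0.18) and Rbp4 (1.12 ± 0.31, adjusted p = 0.0255) were higher and Cyp26b1 lower. Of 29 Notch and Hedgehog genes 1 rose (3.45%) and 2 fell (6.9%). The Notch target Hes1 (0.70 ± 0.12) was higher and Hes6 (-0.98 ± 0.15) and Heyl (-0.82 ± 0.20, second probe set 0.24) were lower. Of 28 xenobiotic genes 1 rose (3.57%) and 3 fell (10.7%). Mgst3 (0.51 ± 0.10) was higher and Ephx2, the epoxide hydrolase (-1.06 ± 0.30), Sult1a1 and Mgst2 (-0.73 ± 0.15) were lower. The call on Ephx2 was lost in 9 of 21 alternatives and that on Rbp4 in 7. Ahr, the dioxin receptor, was dim, at 8.40 to 108 in Oil-DBP and 8.59 to 48.3 in Oil-Oil, and uncalled (adjusted p = 0.476).

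The 4 treated pups responded to different degrees, and pups 111 and 121 had larger median rises and falls than pups 105 and 115. Over the 397 genes that rose by at least 1 the median difference from the Oil-Oil mean was 1.31 in pup 105, 1.86 in pup 111, 1.34 in pup 115 and 1.87 in pup 121. Over the 74 genes that fell by as much it was -1.003, -1.82, -0.97 and -1.48 in the same pups. Pup 111 had 69 of the 74 at a fall of 1 or more and pup 121 had 60, against 38 in pup 105 and 35 in pup 115. On the first principal component of the 8 arrays (65.3% of the variance) pups 105, 115, 121 and 111 lay at 9.83, 20.22, 33.22 and 39.83, and the oil pups between -30.89 and -19.95. These genes were chosen by the same arrays, so the values are descriptions. Without pup 105 the count of probe sets called lower was 2721, and without pup 111 it was 495, against 1289 with all arrays; the counts of those called higher were 1886 and 1102, against 1481.

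The same genes can be read in 8 other arrays, those of pups with fetal DBP (DBP-DBP against DBP-Oil), which share no array with the comparison above but do share the fit's estimate of the spread. There 728 genes were called higher (5.12%) and 305 lower (2.15%). Of the 871 genes that rose here 861 (98.9%) had a positive log2 change there, and 626 (71.9%) were called higher, with a median change of 0.73. Of the 850 that fell 815 (95.9%) were negative there, where 62.9% of all genes were, and 192 (22.6%) were called lower, with a median of -0.22. Of the 74 falls of at least 1, 70 were negative there and 37 called. Of the 25 largest falls outside the lists, 24 were negative there and 16 called lower. Among those uncalled there, Hao2 was at -0.28, Invs at -0.07 and Scn1a at 0.415. Il1rl1, a fall within a list, was at 0.78 and uncalled there. Tmem229b was at -2.18, Cxcr4 at -1.73, Slc25a45 at -1.71, Camsap3 at -1.49, Dhcr7 at -0.92, Nr5a1 at -0.95 and Cyp17a1 at -0.99 (the highest adjusted p of the 7 was that of Cyp17a1, 0.0135). Star was at 0.22 (adjusted p = 0.834), Cyp11a1 at -0.26 (adjusted p = 0.781) and Prm1 at -0.21 (adjusted p = 0.412). A single gene called lower here was called higher there, the class I gene RT1-T24-3, chosen after its values were seen, with -1.14 ± 0.32 here and 1.24 there (adjusted p = 0.0314 and adjusted p = 0.0245). The test of the difference between both responses called 0 of 31042 probe sets (0%; smallest adjusted p = 0.672 in limma), with 1466 at an unadjusted p under 0.05, so nothing here is shown to be particular to pups without fetal DBP.

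**Figure D5:**
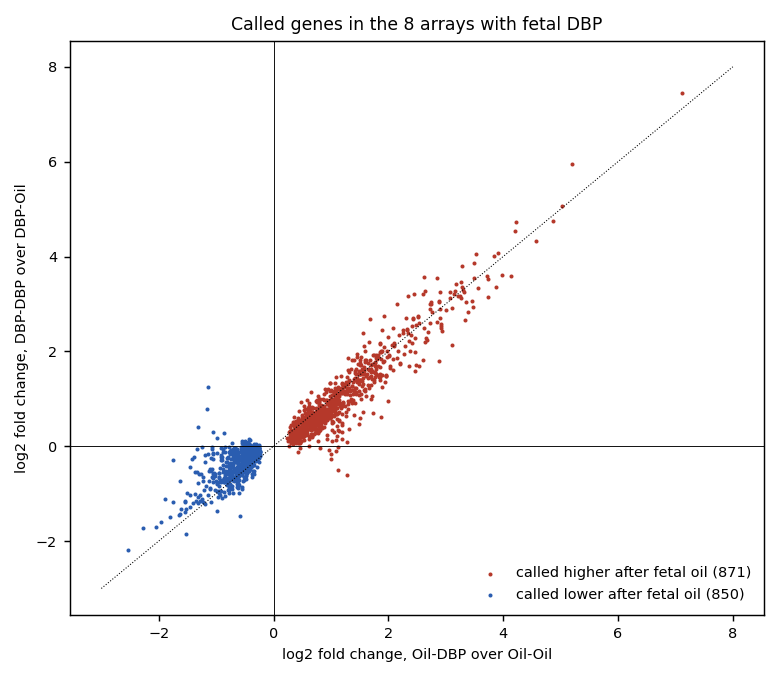
Each point is a gene called in Oil-DBP against Oil-Oil, with that log2 fold change on the x axis and the log2 fold change of DBP-DBP over DBP-Oil, from 8 other arrays, on the y axis. The dotted line marks equal values. Red points (871 called higher) lie along it, and blue points (850 called lower) lie mostly below 0 but nearer to 0 than the line.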

How the data were processed

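Testis RNA of 24 rats was measured on Rat230_2 arrays, and 8 are compared here. What was deposited is intensity per probe set on a linear scale, which the authors produced with GCOS 1.0 per the submitters' processing notes; how probes were summarised is not given in these sources. Each array's trimmed mean was about 500.2, so the values were already scaled when deposited. Of 31099 probe sets, 57 controls were left out.

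Groups came from the sample titles. Intensities were turned into log2(intensity + 16), and since the medians of the PND35 arrays spanned 0.155, over the limit of 0.1, each array was centred on its median. limma 3.58.1 (R 4.3.3; lmFit, and eBayes with an intensity trend) was fitted to the 16 PND35 arrays in 4 groups, with Benjamini-Hochberg adjustment over 31042 probe sets and a threshold of 0.05. Contrasts were Oil-DBP minus Oil-Oil, DBP-DBP minus DBP-Oil and the difference between them. The fit was tested on simulated data. A log2 fold change on this scale understates the change of dim genes, and the number of arrays limits the precision. Overlap of groups was judged on the centred values, while printed intensities are as deposited. A permutation test in scipy 1.17.1 was used for RNA integrity.

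Names came from the platform annotation, which can be old: 20826 probe sets had 1 symbol, 436 several and 9780 none. The brightest probe set by mean log2 stood for each of 14217 genes. Named genes were the 15 largest rises and falls without overlap, up to 3 called members per list and direction, 24 genes whatever their values (3 of them not reported here), the 25 largest falls outside every list, and the 10 largest rises and falls in intensity. Further list members were picked after their values were seen. The comparison, the 48 lists and the genes were chosen with earlier results of these data known. Promoters were RefSeq sequences of build GRCr8. Alternatives were other scaling, pseudocounts, filters, variance models, covariates, blocks and left-out arrays.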

Additional observations from a re-analysis of the deposited data

Results flagged for a closer look

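In 24 of 458 sets of 4 pups, each a named gene in 1 group, a single pup stood far from the other 3 by Dixon's test. Chance alone gives about 1 in 20, or 22.9, so the number of such sets is near that count. Among Oil-DBP pups, pup 105 was low in Ctsl at 4973.21 and in Elovl5 at 4064.77 and high in Prm1 at 33819.3. Pup 111 was low in Elob at 15668.4, in Mcm7 at 3673.72 and in the spermatid gene Meig1 at 5671.23. Pup 115 was low in S100a9 at 187.65 and in Socs3 at 277.79, and high in Evi2a at 237.92, against 59.3 to 67.5 in the other DBP pups.

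Among Oil-Oil pups, pup 104 was low in Eef1g at 14052.7 and Nfkbiz at 7.91 and high in Slc25a45 at 674.47. Pup 110 was high in Cldn4 at 25.01 and Csf2 at 21.07, both dim, and low in Hrg at 98.11. Pup 114 was high in Angptl4 at 452.36 and low in Cebpd at 90.95, Cldn5 at 400.53, Gpi at 1377.02 and Hsd17b3 at 3.86. Pup 120 was high in Ch25h at 16.05, Fbxo41 at 276.16 and Scap at 1165.66, and low in Prm1 at 30081.1.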

How the results depend on the processing

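The count of probe sets called higher (1481) stayed between 1040 and 1886 over the 21 alternatives. The count called lower (1289) was less stable: it was 774 with the arrays as deposited, 658 without the intensity trend, 468 with RNA integrity number as a covariate and 460 in a fit of the 8 arrays alone. Leaving out 1 array gave 495 (without pup 111) to 2721 (without pup 105), with 634 without pup 121 and 676 without pup 110. The cause was not tested. Rises made up 53.5% of the calls, but 69.2% as deposited, 64.8% without the trend, 69.0% with RNA integrity, 70.1% in the 8 arrays alone, and 40.9%, 64.2% and 69.0% without pups 105, 110 and 111. The difference between both responses gave 0 calls in all alternatives run. Of 216 called named genes, 142 kept their call in every alternative in which their probe set was tested.

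The pup numbers carry no stated pairing, and the deviations of adjacent numbers correlated between -0.17 and 0.32 over 8 pairs. With adjacent pup numbers as a replicate block, 1549 probe sets were higher and 1565 lower.

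Signs turned for 18 genes on their second probe set: Agtr2 0.562, Ahr -0.042, Cmtm8 0.423, Dkk3 0.202, Eef1g 0.138, Heyl 0.244, Inhba -0.642, Invs 0.134, Lhcgr 0.055, Ndufa9 0.481, Nr3c1 0.322, Pdp2 0.026, Plaur -0.067, Plin2 -0.155, RT1-Bb 0.96, Rai14 -0.18, Vipr1 -0.748 and Wnt6 0.041 (log2). Only the second-brightest probe set of a gene is counted here. Dimmer ones turned in Casp9 (0.955), Cdh2 (-0.644), Pfkfb3 (-0.378), Igfbp5 (0.263), Slc7a1 (-0.214), Nr2f2 (0.084) and Osbpl1a (0.06), among others tested. Under other settings uncalled genes near 0 turned too. Clu was 0.14 after quantile normalization, 0.036 as deposited and -0.084 to 0.046 with 1 array left out. Hsd17b3 was 0.213 with RNA integrity, 0.126 without the Trizol arrays and -0.62 to 0.107 with 1 array left out. Sycp3 was 0.066 after quantile normalization, and Ppara 0.004 with RNA integrity. With 1 array left out Amh ran from -0.018 to 0.109 and Kit from -0.232 to 0.018. Dim probe sets, such as those of Scn1a, Agtr2 and Il1rl1, have little signal over background.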
